A study of Mus musculus with 70 samples.

Results

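The insulin-like growth factor (IGF) axis was described by 10 named genes out of the 50789 gene identifiers in the deposited count table. They were the ligands Igf1 and Igf2, the receptors Igf1r, Igf2r and Insr, the adaptors Irs1 and Irs2, and the binding proteins Igfbp3, Igfbp4 and Igfbp5. Counts of 8 of the 10 were used, and Irs1 and Igfbp5 were not analysed here. The genes were taken by name, and the axis was selected on the measured CPM of Igf1r, which differed between Cic-L-KO and WT in all 3 tissues. Every Igf1r value that involves Cic-L-KO is therefore given as a description with no test. The remaining contrasts of Igf1r and all contrasts of the other 7 genes were tested. Those tests of Igf1r use WT samples that the choice also used, so they are not free of it.

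Capicua, encoded by Cic, is an HMG-box transcriptional repressor made as a short and a long protein isoform and controlled by receptor tyrosine kinase signalling. RNA was sequenced from mouse lung at postnatal day 6 and from cortex and cerebellum at 12 weeks of age. In each tissue the labels gave 3 genotypes: WT (8 samples per tissue), Cic-S-KO (8 in lung, 7 in cortex and 7 in cerebellum) and Cic-L-KO (8 per tissue), 70 samples in all. The controls were WT littermates of both mutant lines pooled into 1 group, and the labels named no strain, sex, allele design or driver for either mutant. All lung samples belonged to sequencing batch 1 and all brain samples to batch 2, so tissue, age and batch cannot be told apart between lung and brain. Nothing in the labels said that samples of a group came from separate animals, so p-values measure the spread between these samples.

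IGF1 and IGF2 are secreted peptides that bind the IGF1 receptor, a tyrosine kinase close in structure to the insulin receptor. Both receptors recruit insulin receptor substrate proteins, which pass the signal to phosphoinositide 3-kinase and AKT. The IGF2 receptor carries IGF2 to lysosomes and has no kinase, and the IGF-binding proteins hold the ligands outside cells until proteases such as pappalysin release them. In the brain the pathway is known for its part in growth and myelination, and in the neonatal lung for its part in forming alveoli and vessels.

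The libraries held 17798655 to 35523037 counts each. Lung markers (Sftpc, Sftpb, Ager and Nkx2-1) summed to 13767 to 19536 counts-per-million (CPM) in the lung libraries and to at most 5.22 CPM in any brain library. Cortical markers (Tbr1, Neurod6 and Emx1) summed to 218 to 320.1 CPM in cortex and at most 12.7 CPM elsewhere. Cerebellar markers (Pcp2, Gabra6, Cbln1 and Calb1) summed to 2662 to 3865 CPM in cerebellum and 119.5 to 250.9 CPM in cortex. Counts were per gene and so summed the isoforms of Cic, which left loss of 1 isoform unchecked. Cic stood at 114 to 144 CPM in WT lung, 135 to 169 in lung of Cic-S-KO and 118 to 134 in that of Cic-L-KO. In cortex it stood at 165 to 190.5, 261 to 286 and 292 to 342 CPM in the same order, and in cerebellum at 175 to 215, 184 to 232 and 198 to 234 CPM. In each group 3 or 4 libraries carried Y-linked RNA and 4 did not.

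Igf1r, the gene the axis was selected on, and Irs2, the member past the threshold in Cic-L-KO in each of the 3 tissues, are shown with the 250 bases before their RefSeq start sites (GRCm38.p6), 5′ to 3′ on each gene's own strand. Capitals mark GGGCGG, the core of the GC box bound by Sp factors. The first stretch is chr7:67952007-67952256, plus strand, and the second is chr8:11008930-11009179, minus strand.
Igf1r: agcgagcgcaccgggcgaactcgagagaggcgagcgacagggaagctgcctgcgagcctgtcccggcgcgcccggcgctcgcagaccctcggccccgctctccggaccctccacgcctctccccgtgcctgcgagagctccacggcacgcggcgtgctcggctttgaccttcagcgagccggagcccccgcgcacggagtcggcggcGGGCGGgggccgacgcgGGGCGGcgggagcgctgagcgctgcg
Irs2: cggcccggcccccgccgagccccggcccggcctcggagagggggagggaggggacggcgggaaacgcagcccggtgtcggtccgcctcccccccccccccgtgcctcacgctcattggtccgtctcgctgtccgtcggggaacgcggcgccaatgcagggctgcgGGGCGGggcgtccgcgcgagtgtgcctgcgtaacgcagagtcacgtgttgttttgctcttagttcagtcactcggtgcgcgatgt
GGGCGG, searched on both strands, occurred 2 times before Igf1r, 1 time before Irs2 and in 32.7% of 32851 such stretches. It occurred 3 times before Igf2r, 0 times before Igf1, Igfbp3 and Igfbp4, and 0, 0, 1 and 2 times in the 4 stretches of Igf2, so it does not set Igf1r and Irs2 apart from the other members. In the whole windows of 300 bases around the start, Igf1r had a GC content of 76.0% with 48 CpG dinucleotides and Irs2 had 72.0% with 41, against medians of 52.7% and 7 over all windows. The octamers described for Capicua (TGAATGAA, TGAATGGA, TCAATGAA and TCAATGGA, both strands, with no overlap with GGGCGG) were in 3.84% of all windows. They were in 0 of the 10 windows held for 7 of the 8 genes, a description of these letters in these windows and nothing more. A window for Insr was not used here.

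In WT tissue the 8 genes covered a wide range of levels. Compared between genes per length, as transcripts-per-million (TPM), Igfbp4 had the highest level of the 8 in WT lung at 418 ± 31.9 TPM (SD, n = 8), followed by Igf2r at 116 ± 14.5 TPM and Igf1 at 52.01 ± 4.24 TPM. In WT cortex Igfbp4 (70.3 ± 7.20 TPM) and Irs2 (53.4 ± 13.8 TPM) were the highest of the 8, and differed by more than the larger of their SDs. In WT cerebellum Irs2 (61.5 ± 6.19 TPM) was first, Igf2r (30.4 ± 3.36 TPM) second and Insr (22.9 ± 2.16 TPM) and Igf1r (22.4 ± 2.53 TPM) next with nearly equal values. Igf2 had the lowest level of the 8 in each tissue, at 1.42 ± 0.267 TPM in lung, 1.23 ± 0.375 in cortex and 2.98 ± 0.718 in cerebellum. That level is uncertain, because 62.8% of its exonic bases also lie in Gm49394 on the same strand. How reads in shared bases were counted is not given, so the place of Igf2 among the 8 is not settled.

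**Figure D1:**
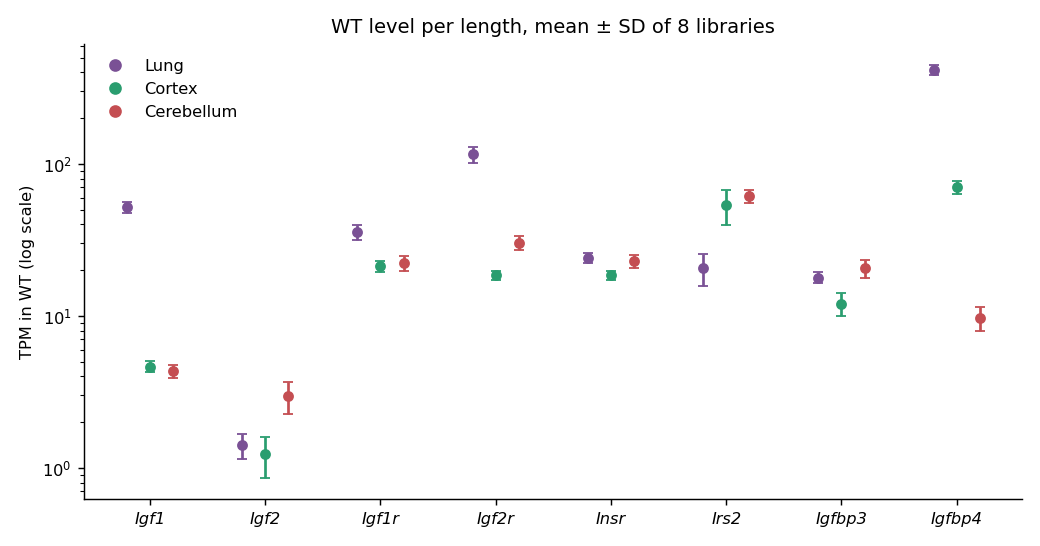
Level of each gene in WT lung, cortex and cerebellum, in TPM on a log axis; points are means and bars the SD of 8 libraries. Igfbp4 spans the widest range, from 9.69 TPM in cerebellum to 418 TPM in lung, and Insr the narrowest.

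Compared between WT tissues in CPM, Igfbp4 was 43.1 times as high in lung as in cerebellum, Igf1 12.0 times and Igf2r 5.62 times as high in lung as in its lowest tissue. Irs2 ran the other way, 2.996 times as high in cerebellum as in lung. These ratios carry no test, because lung and brain differ in age and batch. Between WT cortex and WT cerebellum, which share age and batch, 6 of the 8 genes passed an adjusted p of 0.05, where 73.5% of all 18032 genes tested in brain did. Samples of the regions were fitted as independent, though they may share animals. Igfbp4 was higher in cortex (log2 fold change 2.99, SE 0.11, edgeR adjusted p = 5.28e-27), with 8 of 8 cortex samples above all cerebellum samples. Igf1 was also higher in cortex (0.23, SE 0.075, edgeR adjusted p = 0.0052). Igf2 (-1.15, SE 0.22), Igfbp3 (-0.64, SE 0.094), Igf2r (-0.58, SE 0.048) and Insr (-0.18, SE 0.040) were lower in cortex, with adjusted p from 1.54e-15 to 8.53e-05 (edgeR). The Igf2 value carries the limit on its counting given above. Igf1r (0.047, SE 0.056) and Irs2 (-0.074, SE 0.13) did not pass (adjusted p = 0.452 and 0.616, edgeR).

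**Figure D2:**
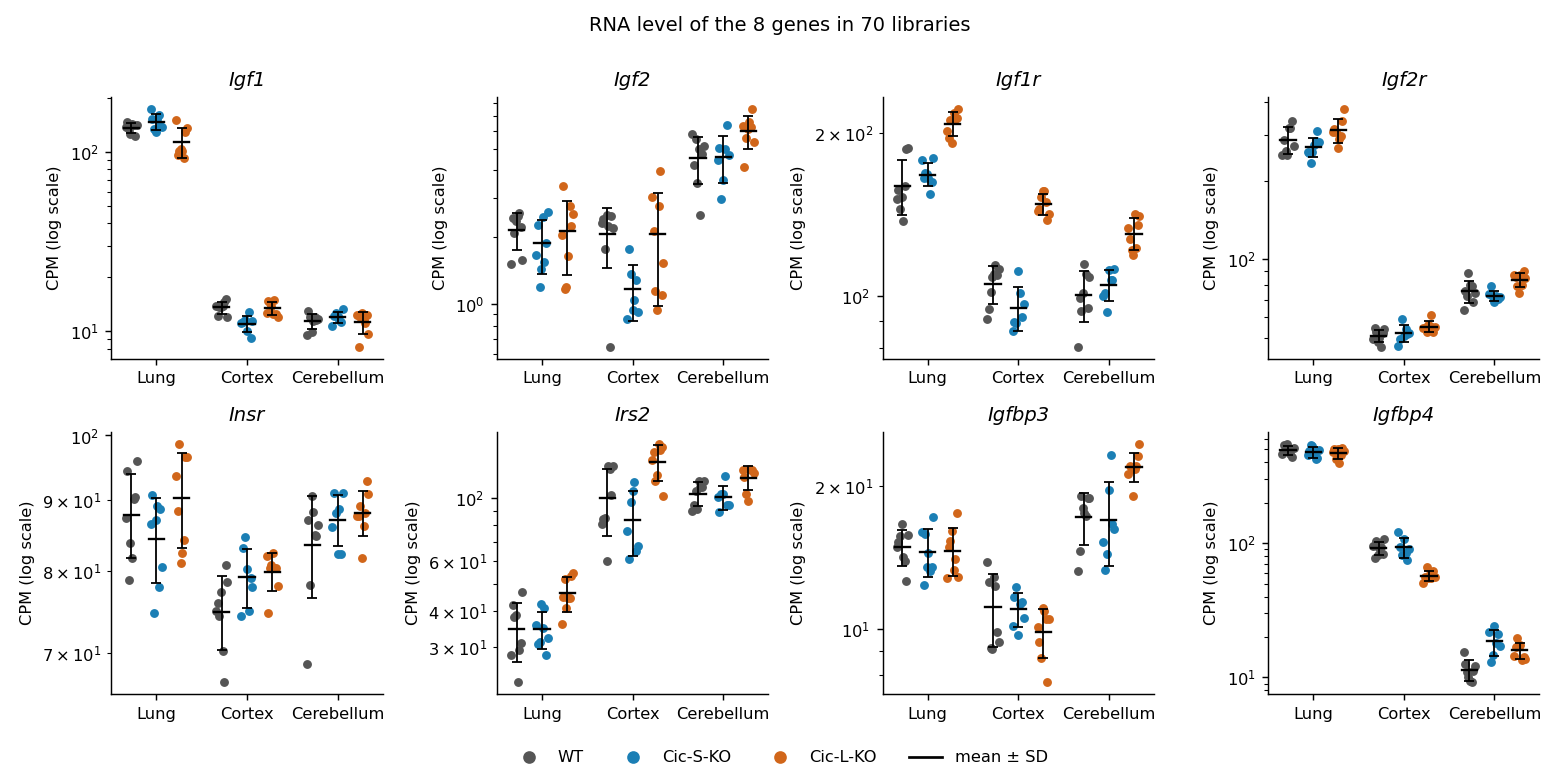
CPM of the 8 genes in each of 70 libraries, on a log axis, by tissue and genotype; each point is a library and black bars are the mean and SD of a group. Igf1, Igf2r and Igfbp4 are highest in the lung libraries, while Igf1r is higher in the 8 Cic-L-KO samples of each tissue than in the WT samples of that tissue.

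The genotypes were then compared within each tissue. For each contrast the text gives how many members passed an adjusted p of 0.05 over all genes tested and the share of all genes that did. In Cic-S-KO lung, 0 of 8 members passed (edgeR), 0 had an unadjusted p under 0.05 and 0 passed with DESeq2, where 15.7% of 16695 genes passed. In Cic-L-KO lung, Irs2 alone of the 7 members tested passed, where 4.89% of genes did. In Cic-S-KO cortex, Igf1 alone of 8 passed, where 6.53% of 16974 genes did. In Cic-L-KO cortex 4 of 7 passed (Igf2r, Insr and Irs2 higher, Igfbp4 lower), where 43.2% of genes did, and nothing is read from a count so near that share. In Cic-S-KO cerebellum, Igfbp4 alone of 8 passed, where 8.23% of 16643 genes did. In Cic-L-KO cerebellum 4 of 7 passed (Igf2r, Irs2, Igfbp3 and Igfbp4, all higher), where 21.5% of genes did. The median log2 fold change of the members counted in Cic-L-KO came to -0.024 in lung, to 0.032 in cortex and to 0.19 in cerebellum, against -0.00093, 0.011 and 0.0038 over all genes tested. In Cic-S-KO it was -0.036, -0.078 and 0.043, against -0.0010, -0.00087 and 0.0053. The contrasts of the mutants with WT share the WT samples of each tissue.

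**Figure D3:**
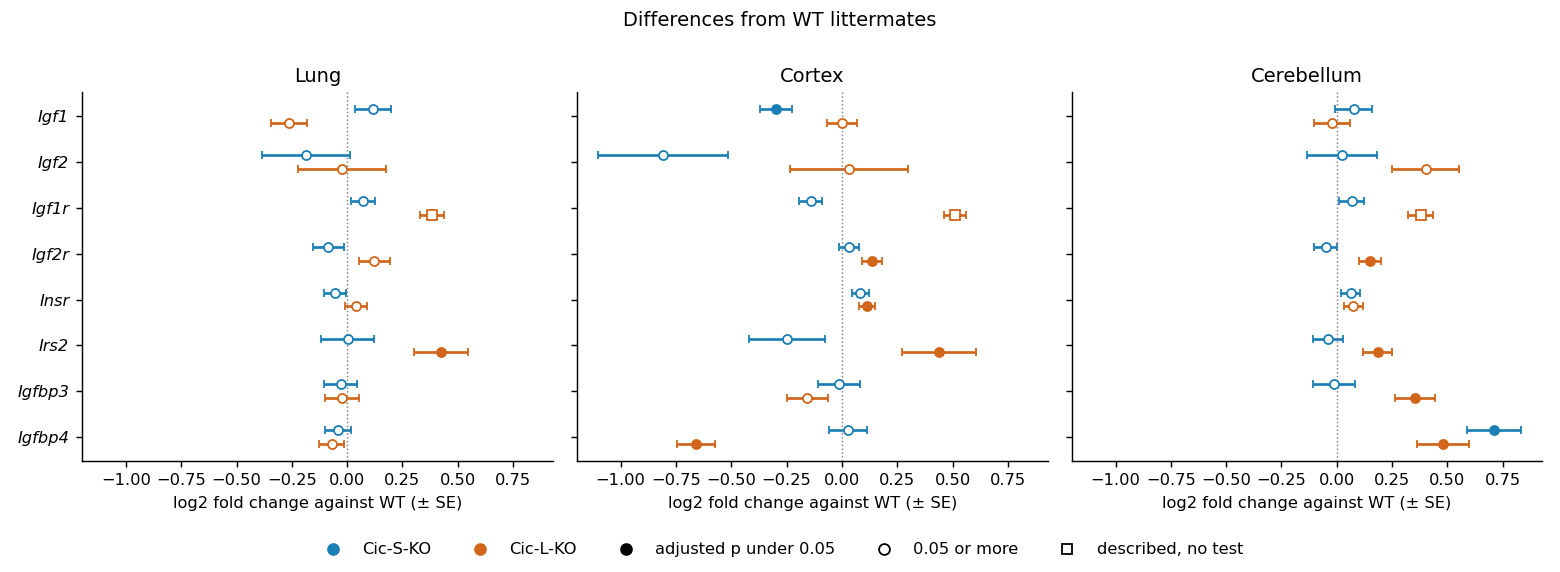
Log2 fold change of each gene against WT in the 3 tissues, with its SE, for Cic-S-KO and Cic-L-KO; filled points passed an adjusted p of 0.05 (edgeR), and squares are Igf1r values given with no test. Irs2 lies to the right of 0 in Cic-L-KO in each tissue, and Igfbp4 lies at -0.66 in Cic-L-KO cortex and at 0.48 in Cic-L-KO cerebellum.

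Igf1r, the gene of the IGF1 receptor (ENSMUSG00000005533.10, chromosome 7, 67952827 to 68233668, plus strand, GRCm38), lies 42.7 Mb from Cic. In lung it ranged from 138 to 188 CPM in WT (median 155), from 154 to 179 in Cic-S-KO (median 167) and from 192 to 222 in Cic-L-KO (median 212). In cortex it ranged from 90.5 to 114 CPM in WT (median 109), from 86.1 to 111 in Cic-S-KO (median 91.5) and from 138 to 156 in Cic-L-KO (median 147). In cerebellum it ranged from 80.6 to 114 CPM in WT (median 100.2), from 93.2 to 112 in Cic-S-KO (median 107) and from 119 to 142 in Cic-L-KO (median 131). All 8 Cic-L-KO samples lay above all 8 WT samples in each tissue, and Cic-S-KO and WT overlapped in each. The log2 difference of Cic-L-KO from WT reached 0.38 in lung (SE 0.055), 0.51 in cortex (SE 0.051) and 0.38 in cerebellum (SE 0.056), values that led to the choice of this gene.

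The Cic-S-KO samples were not part of the choice, but the WT samples they were tested against were. Igf1r did not pass in Cic-S-KO in any tissue. Its log2 fold change from WT was 0.073 (SE 0.054, edgeR adjusted p = 0.377) in lung and 0.067 (SE 0.058, edgeR adjusted p = 0.522) in cerebellum. In cortex it was -0.14 (SE 0.053, edgeR adjusted p = 0.0991), with 3 of 7 samples below all WT samples. With Y-linked expression as a covariate the cortex value passed (adjusted p = 0.0479), 1 of 10 alternative settings to do so, over which adjusted p ran from 0.0479 to 0.326 (edgeR and DESeq2). The 95% intervals of these log2 differences were -0.033 to 0.18 in lung, -0.24 to -0.038 in cortex and -0.047 to 0.18 in cerebellum. Set directly against Cic-L-KO, Cic-S-KO was lower by -0.31 (SE 0.054) in lung, -0.65 (SE 0.053) in cortex and -0.31 (SE 0.058) in cerebellum on the log2 scale, again as a description. In order of mean CPM, Igf1r was highest in Cic-L-KO lung (208 ± 10.6), then Cic-S-KO lung (168 ± 8.26), WT lung (159.7 ± 18.3), Cic-L-KO cortex (148 ± 6.73) and Cic-L-KO cerebellum (130.2 ± 8.79). Below these stood WT cortex (105 ± 8.61), Cic-S-KO cerebellum (104.6 ± 6.88), WT cerebellum (100.2 ± 10.8) and Cic-S-KO cortex (95.04 ± 8.81), neighbours that differed by less than their SDs.

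**Figure D4:**
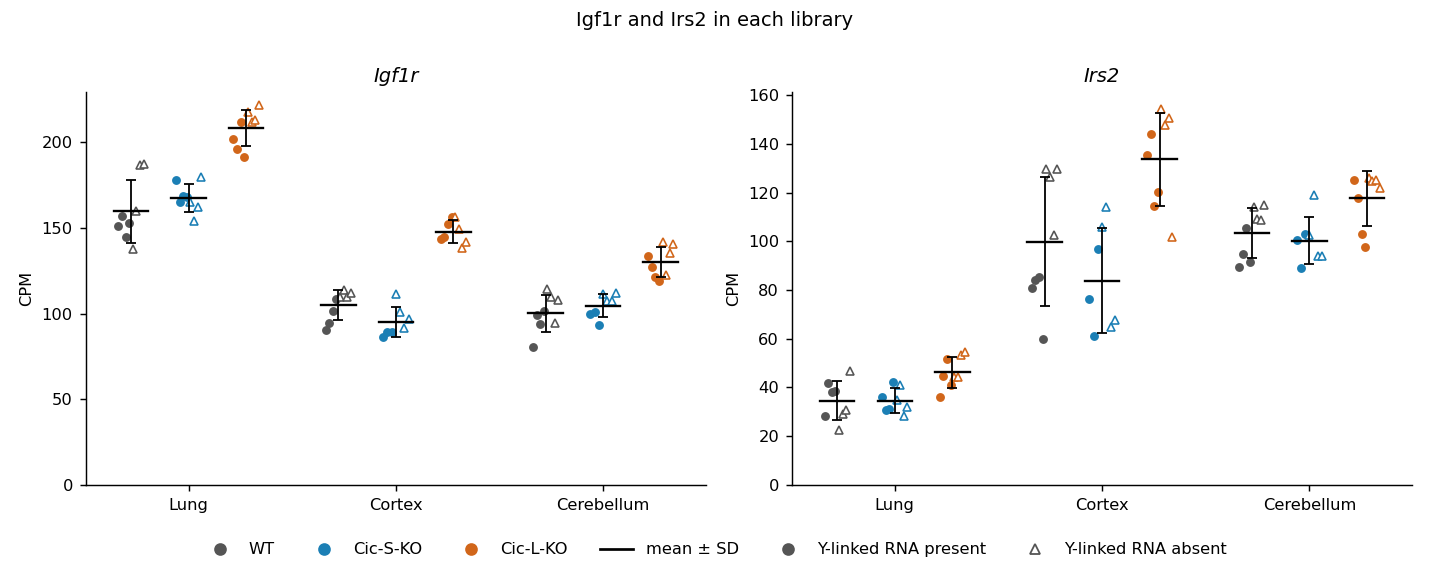
CPM of Igf1r and Irs2 in each library by tissue and genotype, with the mean and SD of each group; filled circles are libraries with Y-linked RNA and open triangles libraries without it. The Igf1r points of Cic-L-KO are clear of WT in each tissue, whereas the Irs2 points of Cic-L-KO and WT overlap, most widely in cortex, where WT runs from 59.8 to 129.8 CPM.

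Insr, the insulin receptor gene (ENSMUSG00000005534.10, chromosome 8, 3122061 to 3279617, minus strand), was the steadiest of the 8 across tissues. Its group means ran from 74.9 ± 4.57 CPM in WT cortex to 90.2 ± 6.99 CPM in Cic-L-KO lung, and neighbouring groups in that order did not differ beyond their SDs. In Cic-L-KO cortex it ranged from 74.7 to 82.4 CPM (median 80.4) against 66.7 to 80.9 CPM (median 75.5) in WT. The groups overlapped, with 2 of 8 samples above all WT, and the small rise passed (log2 fold change 0.11, SE 0.037, edgeR adjusted p = 0.0135). It passed in 8 of 10 alternative settings (adjusted p from 0.0042 to 0.162) and was lost in both sets of libraries split by Y-linked RNA. The other 5 contrasts of Insr with WT did not pass, with adjusted p from 0.182 to 0.71 (edgeR).

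Igf2r, whose product clears IGF2 (ENSMUSG00000023830.13, chromosome 17, 12682406 to 12769664, minus strand), showed small rises in both brain regions of Cic-L-KO. In cortex it ranged from 52.5 to 61.3 CPM (median 54.8) in Cic-L-KO and from 46.3 to 54.6 CPM (median 50.9) in WT. There 5 of 8 Cic-L-KO samples exceeded all WT samples (log2 fold change 0.14, SE 0.044, edgeR adjusted p = 0.0132). In cerebellum it ranged from 74.1 to 90.5 CPM (median 85.2) in Cic-L-KO and from 63.8 to 88.7 CPM (median 74.9) in WT. The groups overlapped, with 1 of 8 Cic-L-KO samples above all WT samples (0.15, SE 0.050, edgeR adjusted p = 0.0334). The cerebellar call held under 7 of 10 alternative settings, with adjusted p from 0.0239 to 0.441, and was lost with the GC adjustment and with a replicate block, among others. In lung Igf2r passed against WT in neither mutant (-0.084 for Cic-S-KO, 0.12 for Cic-L-KO, SE 0.069 each, edgeR adjusted p = 0.434 and 0.326). Airn, the RNA antisense to Igf2r, shares 0 exonic bases with it.

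Irs2, an adaptor below both receptors (ENSMUSG00000038894.7, chromosome 8, 10984681 to 11008458, minus strand), was higher in Cic-L-KO than in WT in each tissue, with widely spread samples. In lung it ranged from 35.97 to 54.5 CPM (median 44.6) in Cic-L-KO, from 22.6 to 46.6 CPM (median 34.6) in WT and from 28.1 to 42.3 CPM (median 33.5) in Cic-S-KO. The groups overlapped, with 3 of 8 Cic-L-KO samples above all WT (log2 fold change 0.42, SE 0.12, edgeR adjusted p = 0.0418). In cortex it ranged from 101.7 to 155 CPM (median 139.9) in Cic-L-KO, from 59.8 to 129.8 CPM (median 94.0) in WT and from 61.2 to 114 CPM (median 76.5) in Cic-S-KO. There 5 of 8 Cic-L-KO samples lay above all WT (0.44, SE 0.17, edgeR adjusted p = 0.038). In cerebellum it ranged from 97.5 to 126 CPM (median 123) in Cic-L-KO, from 89.6 to 115 CPM (median 107) in WT and from 89.0 to 119 CPM (median 100.4) in Cic-S-KO. There 6 of 8 lay above all WT (0.19, SE 0.065, edgeR adjusted p = 0.0419).

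The direction of Irs2 in Cic-L-KO against WT was the same under all 10 alternative settings in each tissue, but the calls were not firm. The lung call held under 5 of 10 (adjusted p from 0.0124 to 0.541), the cortex call under 7 (0.00799 to 0.545) and the cerebellum call under 6 (0.0119 to 0.217; edgeR and DESeq2). Adjustment for GC content ended the call in each tissue, with log2 fold changes of 0.37 in lung, 0.38 in cortex and 0.13 in cerebellum. In cortex the log2 fold change was 0.76 in libraries with Y-linked RNA and 0.20 in those without. In Cic-S-KO, Irs2 did not pass against WT (log2 fold changes 0.0021, -0.25 and -0.041 in lung, cortex and cerebellum, adjusted p from 0.427 to 0.994, edgeR). Set directly against Cic-L-KO, Cic-S-KO had less Irs2 RNA in lung (-0.42, SE 0.12, adjusted p = 0.0232), cortex (-0.69, SE 0.17, adjusted p = 0.004) and cerebellum (-0.23, SE 0.068, edgeR adjusted p = 0.0263). The lung and cerebellum calls each held in 7 of 10 settings (adjusted p from 0.0055 to 0.307 and from 0.00468 to 0.222), and both were lost with no low-count filter (0.0617 and 0.0779), as was the cerebellum call with the GC adjustment (0.0982). The cortex call held in 9 of 10 (0.00036 to 0.0639). Irs2 shares 162 of its 6323 exonic bases with 9530052E02Rik on the opposite strand, and the strand used in counting is not given in the sources used here.

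Igf1, the main circulating ligand (ENSMUSG00000020053.18, chromosome 10, 87858265 to 87937042, plus strand), was lower in Cic-S-KO cortex. It ranged there from 9.16 to 12.8 CPM (median 11.2), against 12.1 to 15.1 CPM (median 13.7) in WT and 12.0 to 15.0 CPM (median 13.3) in Cic-L-KO. Of the 7 Cic-S-KO samples 6 lay below all WT samples (log2 fold change -0.30, SE 0.072, edgeR adjusted p = 0.0141), and 6 lay below all Cic-L-KO samples (-0.30, SE 0.072, edgeR adjusted p = 0.00159). The first call held in 8 of 10 alternative settings (adjusted p from 0.00294 to 0.413) and was lost in both sets of libraries split by Y-linked RNA. In cerebellum Igf1 stood between 8.20 and 13.3 CPM in the 3 genotypes and no contrast passed (adjusted p from 0.51 to 0.885, edgeR). The Cic-S-KO effect on Igf1 was lower in cortex than in cerebellum (-0.38, SE 0.11, edgeR adjusted p = 0.0388), a call that held under 6 of 10 alternative settings, with adjusted p from 0.0169 to 0.804, and was lost with a replicate block (adjusted p = 0.0519).

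In lung Igf1 ranged from 92.4 to 151 CPM (median 102.5) in Cic-L-KO, from 123 to 148 CPM (median 139.6) in WT and from 129 to 175 CPM (median 146) in Cic-S-KO. In Cic-L-KO 5 of 8 samples, between 92.4 and 103 CPM, lay below all WT samples and the other 3 lay between 129 and 151 CPM. The difference of Cic-L-KO from WT did not pass (log2 fold change -0.26, SE 0.082, edgeR adjusted p = 0.0603), though it did with DESeq2 and with a replicate block (adjusted p from 0.0276 to 0.424 over 10 settings). Cic-S-KO lung had more Igf1 RNA than Cic-L-KO lung (0.38, SE 0.082, edgeR adjusted p = 0.0028). The macrophage markers C1qa and Csf1r rose in the lung of both mutants (edgeR). C1qa stood at 16.9 to 25.5 CPM in WT lung, 32.4 to 56.7 CPM with Cic-S-KO and 23.9 to 39.4 CPM with Cic-L-KO, and the part of macrophages in the Igf1 values was not tested. The growth hormone receptor gene Ghr, an input to Igf1 transcription, fell in Cic-S-KO lung (log2 fold change -0.26, SE 0.059, edgeR adjusted p = 0.00381), from 155 to 205 CPM in WT to 129 to 176 CPM.

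Igf2 (ENSMUSG00000048583.16, chromosome 7, 142650766 to 142666816, minus strand), the imprinted fetal ligand, rested on 16 to 220 counts per library, and its value is uncertain. Of its 5723 exonic bases, 62.8% also lie in Gm49394, a readthrough gene on the same strand that had 0 counts in all 70 libraries. How reads in shared bases were counted is not given in the sources used here. In cortex Igf2 ranged from 0.857 to 1.76 CPM (median 1.04) in Cic-S-KO, from 0.645 to 2.52 CPM (median 2.28) in WT and from 0.938 to 3.95 CPM (median 1.83) in Cic-L-KO. The WT minimum came from 1 library and the other 7 lay between 1.76 and 2.52 CPM. Cic-S-KO did not pass against WT (log2 fold change -0.81, SE 0.29, edgeR adjusted p = 0.0942) and passed with DESeq2 (adjusted p = 0.0441; 0.0441 to 0.489 over 9 settings). It was below Cic-L-KO (-0.84, SE 0.29, edgeR adjusted p = 0.0269), a call kept under 5 of 9 settings.

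In cerebellum Igf2 ranged from 4.12 to 7.57 CPM (median 6.18) in Cic-L-KO and from 2.52 to 5.80 CPM (median 4.84) in WT. There 5 of 8 Cic-L-KO samples lay above all WT, and the difference did not pass (0.40, SE 0.15, adjusted p = 0.0587, edgeR; 0.0414 to 0.533 over 10 settings). Choroid plexus markers, genes of a tissue in which Igf2 is known to be made, varied widely within groups: the sum of Ttr, Kl, Folr1, Kcne2, Clic6 and Prlr ran from 29.95 to 3157 CPM in WT cerebellum and from 472 to 3617 CPM in Cic-L-KO cerebellum. In cortex the same sum ran from 24.7 to 662 CPM in WT, 11.5 to 693 CPM in Cic-S-KO and 22.0 to 1451 CPM in Cic-L-KO. Of the 6 markers, 2 (Clic6 and Kcne2) passed as higher in Cic-L-KO cortex. There 43.2% of all genes passed, and nothing is read from that count. The part of choroid plexus in the Igf2 values was not tested. The long noncoding RNA H19, encoded beside Igf2, stood at 133 to 243 CPM in WT lung and at no more than 1.36 CPM in any brain library, and was lower in lung of Cic-S-KO than of Cic-L-KO (-0.50, SE 0.15, edgeR adjusted p = 0.0249).

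Igfbp4, a binding protein that restrains IGF action (ENSMUSG00000017493.12, chromosome 11, 99041244 to 99054392, plus strand), changed in opposite directions in the brain regions of Cic-L-KO. In cortex it ranged from 50.8 to 65.8 CPM (median 55.8) in Cic-L-KO, from 77.8 to 107 CPM (median 92.8) in WT and from 75.0 to 121 CPM (median 90.5) in Cic-S-KO. All 8 Cic-L-KO samples lay below all WT samples, and the mean was 0.63 times that of WT (log2 fold change -0.66, SE 0.084, edgeR adjusted p = 1.23e-06), past the threshold in all 10 alternative settings. Cic-S-KO cortex did not pass against WT (0.029, SE 0.086, edgeR adjusted p = 0.884) and exceeded Cic-L-KO (0.69, SE 0.087, edgeR adjusted p = 1.25e-06). In lung, where Igfbp4 was most abundant, it stood between 396 and 547 CPM in the 3 genotypes and no contrast passed (adjusted p from 0.524 to 0.819, edgeR).

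In cerebellum Igfbp4 rose in both mutants. It ranged from 13.1 to 23.99 CPM (median 18.03) in Cic-S-KO, from 13.5 to 19.6 CPM (median 15.6) in Cic-L-KO and from 9.25 to 15.5 CPM (median 11.1) in WT. In Cic-S-KO 5 of 7 samples lay above all WT samples (log2 fold change 0.71, SE 0.12, edgeR adjusted p = 0.00109), and in Cic-L-KO 4 of 8 did (0.48, SE 0.12, edgeR adjusted p = 0.00497). Each call was lost in 1 of 10 settings, the fit of only the libraries with Y-linked RNA (adjusted p up to 0.741 and 0.0972; the lowest over the settings were 2.37e-06 and 0.000648). The contrast of the 2 mutants did not pass (0.23, SE 0.12, adjusted p = 0.237, 95% interval -0.0082 to 0.47, edgeR).

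Igfbp3, the main carrier of IGFs in serum (ENSMUSG00000020427.11, chromosome 11, 7206086 to 7213923, minus strand), rose in Cic-L-KO cerebellum. It ranged there from 19.008 to 24.5 CPM (median 21.9), against 13.3 to 19.0098 CPM (median 17.7) in WT and 13.3 to 23.2 CPM (median 16.2) in Cic-S-KO. Of the 8 Cic-L-KO samples 7 exceeded all WT samples (log2 fold change 0.35, SE 0.091, edgeR adjusted p = 0.00628), past the threshold in all 10 alternative settings. Cic-S-KO stood below Cic-L-KO (-0.37, SE 0.095, edgeR adjusted p = 0.0103). In cortex (7.73 to 13.8 CPM) and lung (12.3 to 17.6 CPM) no contrast of Igfbp3 passed (adjusted p from 0.171 to 0.977, edgeR).

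**Figure D5:**
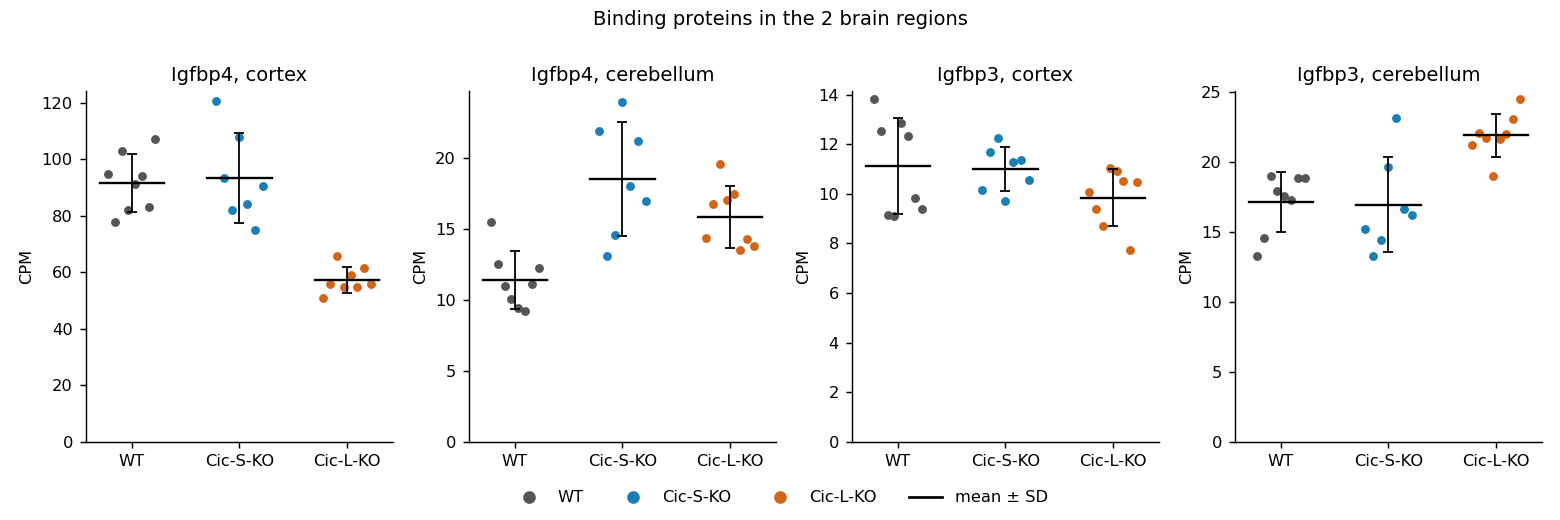
CPM of Igfbp4 and Igfbp3 in each cortex and cerebellum library by genotype, on axes from 0, with the mean and SD of each group. Igfbp4 is lower in all 8 Cic-L-KO cortex samples (50.8 to 65.8 CPM) than in WT (77.8 to 107 CPM) and higher on average in both mutants in cerebellum.

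Whether a genotype acted differently in the 2 brain regions was tested over the 46 brain samples, fitted as independent. The regions may share animals, as the library names of Cic-S-KO skip the same number in cortex and in cerebellum. For Cic-L-KO, 2 of 7 members passed, where 23.0% of 18032 genes did. Igfbp4 had a lower effect in cortex than in cerebellum (difference of log2 fold changes -1.14, SE 0.15, edgeR adjusted p = 2.3e-07), and so had Igfbp3 (-0.51, SE 0.13, edgeR adjusted p = 0.00368). For Igf1r the difference was 0.13 (SE 0.079), a description. For Cic-S-KO, 2 of 8 members passed, where 4.5% of genes did: Igf1, given above, and Igfbp4 (-0.69, SE 0.15, edgeR adjusted p = 0.00847), the latter in 9 of 10 settings. A replicate block lost the Igf1 difference (edgeR adjusted p = 0.0519) and gained that of Igf1r (0.0245). Between the mutants, 3 of 7 members passed in lung (Igf1, Igf2r and Irs2), where 12.2% of genes did. In cortex 4 of 7 passed (Igf1, Igf2, Irs2 and Igfbp4), where 33.9% did, and in cerebellum 3 of 7 (Igf2r, Irs2 and Igfbp3, each lower in Cic-S-KO), where 12.4% did. In lung the Igf2r difference (-0.21, SE 0.070, edgeR adjusted p = 0.0493) was kept in 7 of 10 settings, and in cerebellum it was -0.20 (SE 0.052, edgeR adjusted p = 0.0111).

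Markers of cells of the vessel wall and meninges also differed between genotypes in the 2 brain regions. Beside their counts, the share of all genes that passed was 43.2% in Cic-L-KO cortex, 21.5% in Cic-L-KO cerebellum and 8.23% in Cic-S-KO cerebellum. Endothelial markers (Pecam1, Cdh5, Cldn5, Kdr and Tek) summed to 104.5 to 125 CPM in Cic-L-KO cerebellum against 57.1 to 89.0 CPM in WT and 54.5 to 94.0 CPM in Cic-S-KO, and 5 of 5 rose in Cic-L-KO. In Cic-L-KO cortex they summed to 104 to 144 CPM against 73.8 to 125 CPM in WT, while Igfbp4 fell there. Of the 5, 3 rose, and nothing is read from a count so near the 43.2% share. In Cic-L-KO cortex 2 of 5 astrocyte markers (Aldh1l1 and Gja1) and 2 of 5 microglial markers (C1qa and Csf1r) passed as higher. The others of each list did not pass, and nothing is read from counts so near the 43.2% share. Mural markers (Pdgfrb, Acta2, Vtn and Kcnj8) summed to 118 to 149 CPM in Cic-L-KO cerebellum and 85.0 to 109.8 CPM in WT, with 3 of 4 higher. In cortex they summed to 93.05 to 126 CPM in Cic-L-KO and 68.2 to 112 CPM in WT. There 2 of 4 were higher (Pdgfrb and Vtn), again near the 43.2% share. Some neuronal markers fell in Cic-L-KO cortex, as Igfbp4 did. Of the 3 markers of the cortical list, Emx1 and Tbr1 passed as lower against WT and Neurod6 did not pass. The sum of this list ran from 218 to 275 CPM against 256 to 320.1 CPM in WT. When the mutants were compared directly, Neurod6 went the other way from Emx1 and Tbr1, with more RNA in Cic-L-KO. Of the 4 markers of the cerebellar list only 2, Calb1 and Cbln1, were tested in cortex. Both passed as lower, and the list summed to 119.5 to 172 CPM against 196 to 250.9 CPM in WT. Markers of meningeal fibroblasts (Dcn, Col1a1, Col1a2, Lum, Slc6a13 and Slc22a6) summed to 113 to 181 CPM in cerebellum of Cic-S-KO, 143 to 183 CPM in that of Cic-L-KO and 106 to 142 CPM in WT. In cortex they summed to 47.8 to 112 CPM in WT and 41.5 to 96.9 CPM with Cic-L-KO. Of these 6, 2 rose in the cerebellum of Cic-S-KO and 5 in that of Cic-L-KO, while in Cic-L-KO cortex 0 rose and 2 fell. No marker of these lists had a median count of 0 in any brain group, and the part of these cells in the Igfbp3 and Igfbp4 values was not tested. In bulk tissue, fewer cells of a type and less RNA per cell cannot be told apart.

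A list of 54 other genes of insulin and IGF signalling, 51 of them with counts, was examined beside the members. In Cic-L-KO cortex 21 of 45 tested passed (9 higher, 12 lower), where 43.2% of all genes did, a count near that share. In Cic-L-KO cerebellum 22 of 46 passed (11 higher, 11 lower), where 21.5% of genes did, and in Cic-L-KO lung 5 of 46 (all higher), where 4.89% did. In Cic-S-KO 10 of 46 passed in lung (4 higher), 2 of 45 in cortex (Pik3ca and Pik3r1, both lower) and 6 of 46 in cerebellum (3 higher), where 15.7%, 6.53% and 8.23% of genes did. The list's median log2 fold change in Cic-L-KO was -0.058 in cortex, -0.021 in cerebellum and 0.024 in lung, beside all-gene medians of 0.011, 0.0038 and -0.00093. Of the 24 listed genes from phosphoinositide 3-kinase to FOXO, 12 passed in Cic-L-KO cortex (10 lower), where 43.2% of genes did, and 14 in Cic-L-KO cerebellum (11 lower), where 21.5% did. Mtor, the kinase of the growth pathway, was higher in Cic-L-KO cortex (0.18, SE 0.030, edgeR adjusted p = 1.61e-05) and cerebellum (0.21, SE 0.035, edgeR adjusted p = 0.000109).

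Igfbp6, a binding protein that prefers IGF2, had the largest fall against WT of the list. In cortex it stood at 17.1 to 23.999 CPM in Cic-L-KO and 39.3 to 54.7 CPM in WT, with no overlap (log2 fold change -1.15, SE 0.079, edgeR adjusted p = 3.79e-12). It rose in Cic-L-KO lung, from 12.9 to 19.1 CPM in WT to 21.04 to 29.8 CPM (0.58, SE 0.082, edgeR adjusted p = 7.07e-05). It also rose in Cic-S-KO cerebellum, from 14.3 to 18.97 CPM in WT to 18.8 to 28.1 CPM (0.55, SE 0.091, edgeR adjusted p = 0.000726), in Cic-L-KO cerebellum (0.30, SE 0.088, edgeR adjusted p = 0.0155) and in Cic-S-KO lung (0.29, SE 0.082, edgeR adjusted p = 0.0177). The Cic-L-KO effect on Igfbp6 was lower in cortex than in cerebellum (-1.45, SE 0.12, edgeR adjusted p = 1.33e-12), the same order of regions as for Igfbp4.

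Of the genes listed as acting on binding proteins, Pappa and Stc2 changed in cerebellum and Htra1 and Stc1 did not pass there. Pappa, the pappalysin protease that cleaves IGFBP4, stood at 7.74 to 21.9 CPM in WT, 4.83 to 9.43 CPM with Cic-S-KO and 15.0 to 29.9 CPM in Cic-L-KO. The groups overlapped with WT on both sides, and Pappa fell in Cic-S-KO (-0.98, SE 0.22, edgeR adjusted p = 0.0089) and rose in Cic-L-KO (0.82, SE 0.20, edgeR adjusted p = 0.00579). Set directly against each other, Cic-S-KO was lower than Cic-L-KO (-1.80, SE 0.22, edgeR adjusted p = 1.14e-05). Stc2, a stanniocalcin that inhibits pappalysin, rose in Cic-L-KO cerebellum from 6.79 to 9.71 CPM in WT to 9.93 to 13.2 CPM, with no overlap (0.54, SE 0.081, edgeR adjusted p = 3.21e-05), and rose also in Cic-L-KO cortex (0.42, SE 0.12, edgeR adjusted p = 0.00514).

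Further downstream, 3 genes passed with a log2 change of at least 0.5. Pik3r3, a regulatory subunit of phosphoinositide 3-kinase, stood at 89.6 to 97.8 CPM in Cic-L-KO cortex and 53.95 to 66.6 CPM in WT, with no overlap (0.62, SE 0.045, edgeR adjusted p = 2.18e-12). Eif4ebp1, a translation repressor that mTOR switches off, stood at 4.13 to 5.17 CPM in Cic-L-KO cerebellum and 2.65 to 3.39 CPM in WT, also with no overlap (0.64, SE 0.10, edgeR adjusted p = 9.66e-05). Stat5a, a transcription factor below the growth hormone receptor, stood at 2.88 to 4.02 CPM in Cic-L-KO cortex and 1.52 to 3.25 CPM in WT, with overlap (0.59, SE 0.16, edgeR adjusted p = 0.0035).

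The genes whose levels followed Igf1r most closely were found by Pearson correlation of log2 CPM after the tissue mean was removed, over 70 samples and 14306 genes. They were Atxn1 (r = 0.84, Spearman rho 0.79), which encodes a partner protein of Capicua, Zswim4 (0.83, 0.82), Maff (0.82, 0.75), Csdc2 (0.81, 0.77) and Map4 (0.80, 0.77). Among the other members Irs2 stood highest, at rank 40 (r = 0.71), then Igf2r (0.51) and Insr (0.37), while Igfbp4 had r = -0.36. Genotype differences were left in these values, among them the Cic-L-KO difference by which Igf1r was chosen. Genes that change in Cic-L-KO, such as Irs2, can rank high for that alone. The samples also share library totals, so the values describe likeness and carry no p. After the group mean was removed as well, over the 46 brain samples, Irs2 was most like Trib1 (r = 0.88), Stk40 (0.87), Dnajb5 (0.86), Sik2 (0.85) and Dusp5 (0.83). Igfbp4 was most like Stac2 (0.81), Ephb6 (0.78), Tppp (0.74), Dkk3 (0.74) and Zfp365 (0.74), and Igf2 was most like H2-Ab1 (0.77), Bmp6 (0.74), Cd74 (0.69), H2-Eb1 (0.69) and Ddr1 (0.68). By Pearson r, Insr was most like another member, Igf2r (0.65), but the Spearman rho of that pair (0.50) was below that of Insr with Ambra1 (r = 0.64, rho 0.59).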

How the data were processed

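Per the labels' protocols, total RNA from flash-frozen tissue was poly(A)-selected and sequenced on Illumina libraries. The submitters' processing notes name STAR 2.7 and GRCm38.p6; the counting program, annotation and use of strand are not given in the sources used here. The authors deposited raw counts per gene, 17798655 to 35523037 per library. Of 50789 identifiers, 50725 matched GENCODE by identifier without version; rows of chromosome 1 were not analysed here, which leaves out Irs1 and Igfbp5. No replicate pair of 238 was identical.

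CPM were computed on TMM-scaled library sizes over all 70 libraries, and TPM from counts and union exon lengths. Fold changes came from edgeR 4.0.16 (R 4.3.3) quasi-likelihood fits of the 3 genotypes of 1 tissue, or of the 46 brain samples for contrasts between regions, with filterByExpr, TMM, robust dispersion and Benjamini-Hochberg adjustment over all genes tested. SE was the absolute log2 fold change over the root of F, and the 95% intervals use it. All 8 members passed the filter. The test was tried on simulated counts. DESeq2 1.42.0 and other settings were alternatives, 2 of them, libraries with or without Y-linked RNA alone, chosen after seeing the data.

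The members and lists were chosen with earlier results of these data known. Named genes were the members, list genes past the threshold with an absolute log2 change of at least 0.5 against WT, and the 5 genes of highest correlation per member; Ghr, H19, Mtor, C1qa with Csf1r, and Pik3ca with Pik3r1 were named after their values were seen. Same-numbered replicates of different groups were not treated as pairs. Results that need items withheld from this text are not reported here.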

Additional observations from a re-analysis of the deposited data

Results flagged for a closer look

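Over the 72 groups of values formed by 8 genes and 9 tissue and genotype groups, 2 held a sample far from the rest by Dixon's ratio, where chance gives 3.6. Igf2 in WT cortex stood at 0.645 CPM in replicate 6 and between 1.76 and 2.52 CPM in the other 7. Igf2r in Cic-L-KO cortex stood at 61.3 CPM in replicate 6 and between 52.5 and 56.1 CPM in the other 7.

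The effect of a genotype differed between cortex and cerebellum, by an interaction term over 46 samples, in 4 cases (edgeR). For Igfbp4 the difference of log2 fold changes was -1.14 in Cic-L-KO (adjusted p = 2.3e-07) and -0.69 in Cic-S-KO (adjusted p = 0.00847). For Igfbp3 in Cic-L-KO it was -0.51 (edgeR adjusted p = 0.00368), and for Igf1 in Cic-S-KO it was -0.38 (edgeR adjusted p = 0.0388). The first was past the threshold in all 10 alternative settings.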

How the results depend on the processing

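No called log2 fold change of a member changed sign in 10 alternative settings. Size factors of DESeq2 inside edgeR changed no call, and 0 members were called in Cic-S-KO lung in every setting. Counts of members called moved by over 1.5 times as follows. In Cic-L-KO lung (1 called) the count was 2 with DESeq2 and with a replicate block, and 0 with no low-count filter, only the compared groups, the GC adjustment and either set of libraries split by Y-linked RNA. Between the mutants in lung (3) it was 1 with no low-count filter and 0 in either set. In Cic-S-KO cortex (1) it was 2 with DESeq2 and with the Y-linked covariate and 0 in either set. In Cic-L-KO cerebellum (4) it was 2 with the GC adjustment. For the Cic-S-KO difference between regions (2) it was 1 with no low-count filter. In libraries with Y-linked RNA alone the counts in cerebellum were 0 for Cic-S-KO (1) and 1 for Cic-L-KO (4), 2 in Cic-L-KO cortex (4), 1 between the mutants in cerebellum (3) and 0 for the Cic-S-KO difference between regions (2). In libraries without it they were 2 in Cic-L-KO cortex (4), 1 between the mutants in cortex (4) and 1 for each difference between regions (2). These sets hold 3 or 4 libraries a group, and calls over all genes also fell in most of them. With Y-linked RNA they went from 1370 to 3 in Cic-S-KO cerebellum and from 817 to 62 in Cic-L-KO lung. For the Cic-S-KO difference between regions they went from 812 to 0. Without Y-linked RNA they rose to 2427 in Cic-S-KO cerebellum and to 1116 for the Cic-S-KO difference between regions.

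The replicate block also lost Igf2 between the mutants in cortex (edgeR adjusted p = 0.0619), Igf2r in Cic-L-KO cerebellum (0.0701) and the Igf1 difference between regions (0.0519), and gained Igf1 in Cic-L-KO lung (0.0276) and Igf1r for the Cic-S-KO difference between regions (0.0245). It changed no other call. Same-numbered samples of a tissue had correlations of deviations from -0.387 to 0.348, 33 of 68 pairs over 0.1. Between cortex and cerebellum 16 of 23 same-numbered pairs were over 0.1, with 7 of 7 in Cic-S-KO (0.151 to 0.257, 6 best with their own number), 7 of 8 in WT and 2 of 8 in Cic-L-KO. With the library number that Cic-S-KO skips in both regions, this is a hint that the contrasts between regions, fitted as independent samples, may share animals. Over all genes, calls in Cic-S-KO cortex went from 1108 to 449 with the GC adjustment. Igf2 has too few counts for small differences to show.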

Other observations

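Within 1 genotype, Irs2 and Igf1r also differed in some groups between libraries with and without Y-linked RNA. In WT cortex Irs2 stood at 59.8 to 85.3 CPM in the 4 libraries with Y-linked RNA and at 102.7 to 129.8 CPM in the 4 without, with no overlap. In WT cerebellum it stood at 89.6 to 105.5 CPM with and 108.8 to 115 CPM without. In Cic-L-KO cortex the same sets overlapped, at 114 to 144 and 101.7 to 155 CPM. Igf1r in WT cortex stood at 90.5 to 108.5 CPM with and 109.4 to 114 CPM without. Igf2r in Cic-S-KO lung stood at 234 to 258 CPM with and 274 to 309 CPM without, and in WT lung at 249.9 to 285 and 271 to 337 CPM. The means went the other way for Irs2 in WT lung (36.8 CPM with, 32.3 without) and for Igf1r in Cic-L-KO cortex (149.2 with, 146.5 without), among others. The groups given are a selection, and these differences were not tested.

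In lung, after the group mean was removed over 24 samples, Insr was most like Nrp1 (r = 0.85), Mbnl3 (0.83) and Abcb1a (0.83), Igfbp4 most like Arf1 (0.86), Galnt18 (0.86) and Cnn2 (0.85), and Irs2 most like Klf11 (0.85), Plk3 (0.82) and Nus1 (0.81). These are correlations among samples that share library preparation, given with no p.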
